A study of Mus musculus with 6 samples.

Results

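The retained introns of 200 nt or more described here come from a study of mouse small-intestinal crypt cells with and without Ptbp1. A retained intron is an intron that stays in the polyadenylated RNA instead of being spliced out. An intron was taken when its length, from the end of the upstream exon to the start of the downstream exon, was at least 200 nt and when the sum of its inclusion and skipping reads averaged at least 20 per library. The rule used length and read number, and no difference between libraries. It kept 1758 of the 3326 rows of the retained intron table, in 1304 genes. A further 1198 rows of under 200 nt passed the same read minimum, for 2956 rows in all, and 196 rows of 200 nt or more fell under it. The introns nearest to the length limit were those of Rnpepl1 and Prodh, both of 200 nt, with retention levels of 0.0789 and 0.212, and those of Slc7a6 and Celf3, both of 199 nt, with levels of 0.968 and 0.129. Nearest to the read minimum, F630040K05Rik averaged 20.8 and Tle2 21 reads on the inside, and Arid5a averaged 19.8 and Dusp22 19.7 reads on the outside.

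The libraries were 3 from WT mice, with floxed Ptbp1 alleles (Ptbp1f/f), and 3 from PTBP1_KO mice, with the same alleles and Vil-creER, a tamoxifen-dependent Cre under villin regulatory sequence that acts in intestinal epithelium. All mice were C57BL/6 aged 60 days, and WT and PTBP1_KO mice alike were injected with tamoxifen, 100 mg/kg a day for 2 days, with cells taken 20 h after injection 2. Villi were scraped away, crypts were loosened in 2 mM EDTA and cells were passed through a 70 µm strainer, so other cell types of the crypt can be present. The splicing tables split the libraries into a first and a second set of 3 and leave the genotypes of these sets unnamed. Differences are therefore given as first set minus second set, libraries are named by set and by their place in the count field, and no genotype is assigned to a set. In the authors' deposited gene table, which gives 1 value per genotype and does name them, Ptbp1 was listed at 230 and 123 FPKM (WT and PTBP1_KO), a log2 fold change of -0.91 with a q-value of 0.0125. The p-values measure the spread between these libraries only.

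An intron leaves a transcript when its 5′ splice site, its branch point and the pyrimidine-rich tract with the AG at its 3′ end are recognised by the spliceosome. PTBP1 binds pyrimidine-rich RNA, often close to 3′ splice sites, and is best known for holding back the use of nearby exons. A transcript with an intron left in it is often kept in the nucleus, or is degraded after export where the intron puts a stop codon in the reading frame.

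The 3′ ends of 11 longer introns that the results below turn on are shown first, since PTBP1 and the splicing factor U2AF both bind RNA there. Each is read 5′ to 3′ on the strand of the gene and ends with the last base of the intron. The sequences come from GENCODE M21 transcripts that hold the intron, with mm10 coordinates. TCTT and CTCTCT are in capitals, and the Celf1 end is limited to 30 nt because this intron lies in the 3′ UTR. The last pair, from Abcd4, is given over 30 nt with the final AG in capitals.

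Tead3 (chr17:28335497-28335556, minus strand): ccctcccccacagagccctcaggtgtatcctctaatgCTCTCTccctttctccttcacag
Hps1 (chr19:42756341-42756400, minus strand): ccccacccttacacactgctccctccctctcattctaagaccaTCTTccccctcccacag
Myo19 (chr11:84907176-84907235, plus strand): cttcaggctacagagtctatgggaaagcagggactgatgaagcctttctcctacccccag
Atg16l2 (chr7:101291593-101291652, minus strand): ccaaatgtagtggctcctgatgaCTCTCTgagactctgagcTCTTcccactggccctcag
Mars (chr10:127296634-127296693, minus strand): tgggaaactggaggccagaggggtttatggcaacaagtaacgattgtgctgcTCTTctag
Idh3g (chrX:73782104-73782163, minus strand): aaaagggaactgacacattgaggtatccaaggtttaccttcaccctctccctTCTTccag
Dennd6b (chr15:89186428-89186487, minus strand): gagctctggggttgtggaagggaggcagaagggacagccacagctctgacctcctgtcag
Rnf123 (chr9:108069287-108069346, minus strand): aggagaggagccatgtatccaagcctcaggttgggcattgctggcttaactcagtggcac
Celf1 (chr2:91016536-91016565, plus strand): tcccTCTTtctggtttgtttttttttctag
Abcd4, intron of 329 nt (chr12:84612451-84612480, minus strand): atcctcgctttccctctctctgcccttcAG
Abcd4, intron of 334 nt (chr12:84612446-84612475, minus strand): cgctttccctctctctgcccttcagcacAG

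The ends of Tead3 and Hps1 are dense in pyrimidines, while those of Mars and Dennd6b are less so. The Rnf123 intron ends in AC. Its 5′ junction, gcgATATCA with the intron's first bases in capitals, begins with AT, as in introns of the AT-AC class. Of the 1753 longer introns with a readable sequence, 1712 (97.7%) had GT-AG ends, 35 had GC-AG ends and 4 had AT-AC ends.

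The retention level, recomputed per library from the reads, is the inclusion reads per nucleotide of the inclusion form as a share of both forms per nucleotide, so 0 is always spliced and 1 always retained. Longer introns lay mostly at low levels of retention. Over reads summed from the 6 libraries the median level was 0.217, with quartiles of 0.0634 and 0.799. The shorter introns had a median of 0.158 and quartiles of 0.0666 and 0.427, and this difference was not tested. The 6 libraries had medians of 0.207 to 0.233 from 1503034 to 1968740 reads on these introns, and the ranges of the sets overlapped. The levels were unevenly spread: 363 longer introns (20.6%) lay below 0.05 and 270 (15.4%) at 0.95 or above, where 7.10% of the shorter introns lay.

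**Figure D1:**
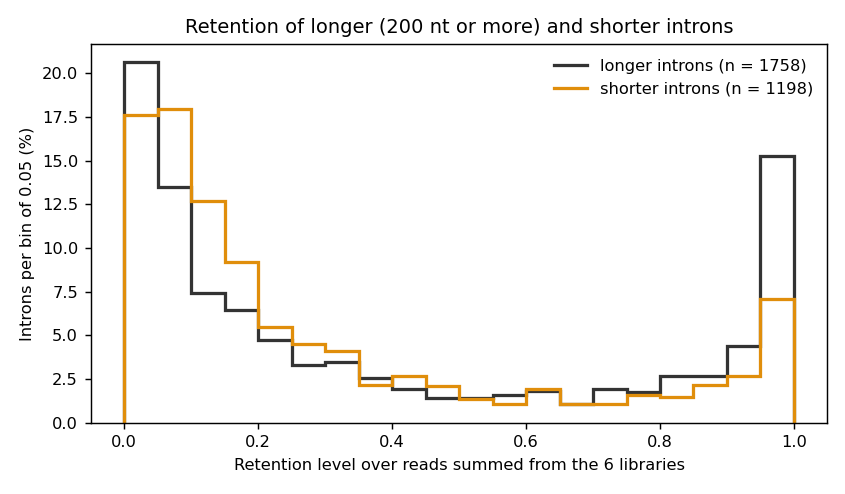
Share of introns (%) in each bin of 0.05 of the retention level over reads summed from the 6 libraries, for longer introns (black, n = 1758) and shorter introns (orange, n = 1198). Both curves are highest at low levels, and the longer introns have the higher peak in the top bin, which holds 15.4% of them.

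Most of the introns at the top had very few skipping reads. Of the 270 at 0.95 or above, 80.0% had fewer than 20 skipping reads in all 6 libraries together. A whole exon of the same gene lay inside 155 of the 270, and its reads can count as inclusion reads in this table. The 346 longer introns with a whole annotated exon inside (19.7% of all) had a median level of 0.933, and 44.8% of them were at 0.95 or above. The 1412 without one had a median of 0.160, and 8.14% of them were at 0.95 or above. Among the shorter introns, 0.334% held a whole exon. Retention was also high, with a median of 0.973, in the 206 longer introns (11.7%) whose splice joins ends that no annotated transcript joins, against 0.178 in the other 1552. In a row with a whole exon inside, the retained form is partly annotated exon.

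The extremes among well-covered introns, with at least 100 reads per library, show this. Gas5, a non-coding host of small nucleolar RNAs, had a level of 1 in 5 libraries and 0.999 in second set library 3 over a span of 1273 nt (98905 inclusion and 2 skipping reads), and 11 annotated exons, which can overlap each other, lie inside that span. Spans in Ddx5, an RNA helicase (1274 nt, 3 skipping reads), Gm38431 (2109 nt, 3), Ano9 (521 nt, 2) and Entpd8 (419 nt, 1) were at 0.999 or above over the summed reads, and each of them also holds at least 1 whole exon. Exons of other genes on the same strand overlap some of these spans. They belong to Raver1 and Fdx1l in the Gm38431 span, to snoRNA genes in Gas5 and to miRNA genes in Ddx5. Reads of those genes can count as inclusion reads. At the other end, introns of Snrpc, a U1 snRNP protein, Larp4, Atp6v1c1, Blmh and Rpl7, a ribosomal protein, had levels of 0.0013, 0.00159, 0.00178, 0.00185 and 0.00256. None of these 5 holds a whole exon. The Rpl7 intron was spliced in 97975 skipping reads against 843 inclusion reads, and its level lay between 0.0022 and 0.00328 in every library.

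Over all longer introns together, length and retention showed little shared order. The median length was 588 nt, with quartiles of 332 and 1141 nt. The median retention was 0.226 from 200 nt, 0.281 from 300 nt, 0.221 from 500 nt, 0.148 from 1000 nt and 0.154 from 2000 nt up, each class ending where the next begins. Across the 1758 introns the rank correlation of length with retention was -0.0688, a description over introns that share libraries and, in part, genes. Introns with a whole exon inside were longer (median 887 nt against 537 nt) and had higher levels (median 0.933 against 0.160). The correlation mixes both kinds of intron, and the relation within each kind was not examined. The longest was in Hace1, a ubiquitin ligase gene, at 8856 nt (chromosome 10, 45701025 to 45709880), with levels of 0.0591, 0.1 and 0.105 in the first set and 0.0811, 0.0690 and 0.0894 in the second. Those sets overlapped. The Fam53a intron of 6583 nt had levels of 0.0468 to 0.0730, and the Stambp span of 6384 nt rested on a single skipping read.

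In annotation, 1300 longer introns (73.9%) lay between coding bases of a transcript, 47 in a 5′ UTR and 27 in a 3′ UTR. The retaining form was a transcript of the annotation's retained_intron class for 80.1% of them and a protein-coding transcript for 10.5%. Read on in the upstream frame, 1226 of 1268 coding introns (96.7%) reached a stop codon inside the intron, at a median of 47 nt, against 72.6% of the coding introns under 200 nt. The shares of introns with a stop were not compared by a test. Their GC content had a median of 49.0%, against 55.4% in shorter introns of at least 100 nt.

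Rows were not all separate introns. In 313 genes there were 2 or more of them, up to 9 in Becn1, and 406 introns overlapped another in 323 pairs, 271 of which shared a splice site. An exon of another gene overlapped 169 introns (9.61%), so part of their inclusion reads can belong to that gene.

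A longer intron was called when, in the authors' deposited table, its FDR was below 0.05 and its difference at least 0.1 in either direction. This held for 47 of 1758 (2.67%), where it held for 2.06% of all 2956 introns with enough reads. The call was towards higher retention in the first set for 31 (background 1.18%) and towards lower retention for 16 (background 0.880%). That is 66.0% positive, with an exact 95% binomial interval of 50.7% to 79.1% that covers counting error only. The interval takes introns as independent, though all come from the same 6 libraries and 14 of the 47 overlap another longer intron. It is no test of a shared direction. The shorter introns had 4 calls towards higher and 10 towards lower retention in the first set. The shares were not compared by a test. Calls were spread over the lengths, with 2.72% below 300 nt and 3.33% from 2000 nt up. All 47 had levels between 0.05 and 0.95 over the summed reads, which a difference of at least 0.1 between the sets nearly requires.

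The levels of the individual libraries were also compared, from the same reads that the call rests on. The 3 libraries of the first set all lay above or all below those of the second in 127 (7.22%) and 97 (5.52%) of the longer introns, where the background over all introns was 5.82% and 6.39%. Both shares lie near the background. Of the 47 called introns, 33 did not overlap between the sets, 23 higher and 10 lower in the first set. This is partly built in, since the call selects introns by a difference in the same reads. The other 14 overlapped, and 10 of these had fewer than 20 skipping reads in all.

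**Figure D2:**
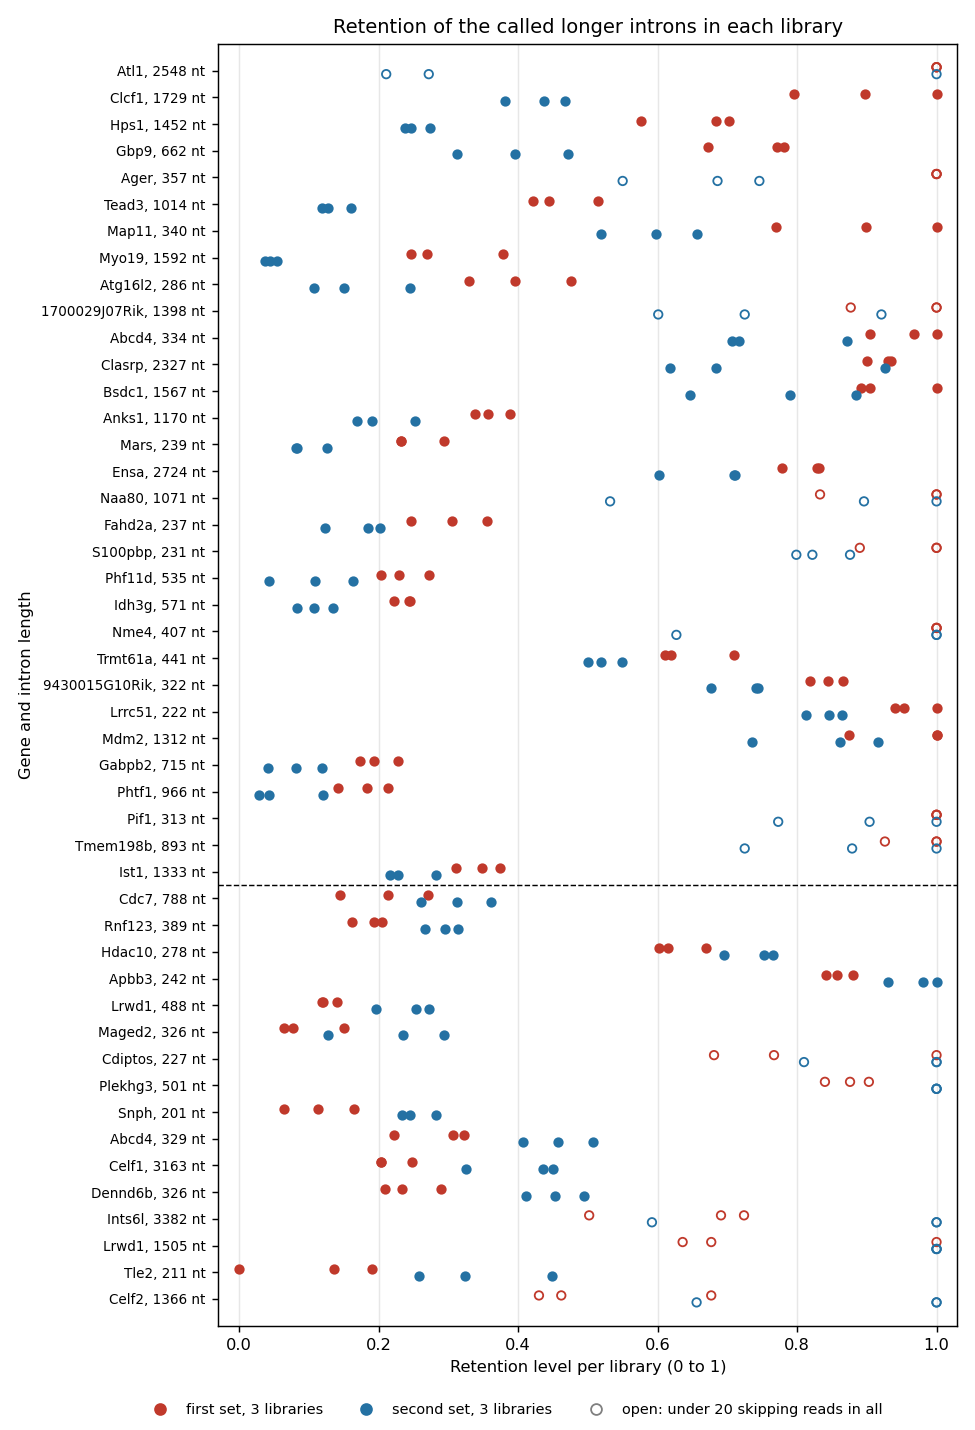
Retention level of each of the 47 called longer introns in the first set (red, 3 libraries) and the second set (blue, 3 libraries), ordered by the authors' difference, with those higher in the first set above the dashed line. Open circles mark the 13 introns with fewer than 20 skipping reads in all, where several libraries sit at exactly 1.

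The best-covered of the large calls were in Tead3, Hps1 and Myo19. Tead3 encodes a TEAD transcription factor of the Hippo pathway. Its intron 4 of 12 (chromosome 17, 28335497 to 28336510, minus strand, 1014 nt) had levels of 0.514, 0.422 and 0.445 in the first set and 0.119, 0.128 and 0.160 in the second. The sets were far apart, and the difference in the authors' deposited table was 0.325 with an FDR listed as 0. The inclusion reads differed, at 1030, 1074 and 1107 against 231, 232 and 376, more than the skipping reads, at 121, 183 and 172 against 212, 197 and 245. The span holds 3 whole annotated exons, and an in-frame stop follows after 264 nt.

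Hps1 encodes a subunit of a complex needed for lysosome-related organelles. Its intron 18 of 19 (chromosome 19, 42756341 to 42757792, minus strand, 1452 nt), with no exon inside, had levels of 0.577, 0.684 and 0.703 against 0.238, 0.246 and 0.274. Both kinds of read differed: skipping reads were 29, 23 and 25 in the first set and 71, 72 and 69 in the second, and inclusion reads were 438, 551 and 657 against 246, 261 and 289. The sets did not overlap in either count, and the difference in the authors' deposited table was 0.402 with an FDR listed as 0.

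Myo19 encodes a myosin of the mitochondrial surface. Its intron 20 of 24 (chromosome 11, 84905644 to 84907235, plus strand, 1592 nt), also without an exon inside, had levels of 0.246, 0.269 and 0.378 against 0.0538, 0.0442 and 0.0378. Here the second set was close to full splicing. The difference was 0.252 with an FDR listed as 0 in the authors' deposited table, and an in-frame stop follows after 38 nt.

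Among the 10 genes with the largest positive differences, the others rested on fewer reads. Atg16l2, a paralogue of the autophagy gene Atg16l1, had levels of 0.476, 0.396 and 0.329 against 0.150, 0.245 and 0.108 at its intron of 286 nt, with 187 skipping reads, a difference of 0.233 and an FDR of 2.13e-04 in the authors' deposited table. Clcf1, a cytokine gene of the interleukin-6 family, had levels of 1, 0.796 and 0.898 against 0.437, 0.467 and 0.381 from 20 skipping reads. Gbp9, an interferon-induced guanylate-binding protein gene, had 0.781, 0.673 and 0.772 against 0.313, 0.396 and 0.472 from 24 skipping reads, and Map11 had 1, 0.770 and 0.899 against 0.657, 0.519 and 0.598 from 35. In these 4 introns the sets did not overlap. The widest difference of all, 0.506 with an FDR of 0.00946 in the authors' deposited table, was in Atl1, which encodes an atlastin of the endoplasmic reticulum. It came from 4 skipping reads, 2 each in second set libraries 1 and 2, and second set library 3 was at 1 like the whole first set. The 5′ UTR intron of 1700029J07Rik (difference 0.210) also overlapped between the sets, with 14 skipping reads.

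Ager encodes the receptor for advanced glycation end products. Its intron of 357 nt was at 1 in each first set library and at 0.746, 0.550 and 0.686 in the second set, with 0 skipping reads in the first set and 14 in the second. The first set had 8, 21 and 15 inclusion reads there. The difference in the authors' deposited table was 0.339 with an FDR of 1.54e-05.

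On the other side, Celf1 had the deepest call. CELF1 and CELF2 are RNA-binding proteins that regulate splicing and mRNA stability, and in both genes the called intron was the last one, within the 3′ UTR of protein-coding transcripts. Celf1 (chromosome 2, 91013403 to 91016565, plus strand, 3163 nt) had levels of 0.203, 0.248 and 0.204 in the first set and 0.450, 0.325 and 0.436 in the second. The sets did not overlap, with 1405 skipping reads, a difference of -0.185 and an FDR of 4.74e-09 in the authors' deposited table. Celf2 (1366 nt) had levels of 0.462, 0.430 and 0.677 against 1, 0.656 and 1 from 16 skipping reads. Its difference of -0.362 was the most negative of the calls in the authors' deposited table, with an FDR of 0.00350, and its sets overlapped.

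Dennd6b, which encodes a regulator of Rab GTPases, had levels of 0.209, 0.233 and 0.289 against 0.412, 0.453 and 0.495 at intron 13 of 19 (chromosome 15, 89186428 to 89186753, minus strand, 326 nt). Skipping reads were 136, 97 and 95 in the first set and 55, 50 and 56 in the second, without overlap. The authors' deposited table gives a difference of -0.210 with an FDR of 1.23e-08. The AT-AC intron of Rnf123, a ubiquitin ligase gene, had 0.205, 0.162 and 0.193 against 0.296, 0.314 and 0.266, a difference of -0.105 with an FDR of 0.00619 in the authors' deposited table. Tle2, a Groucho-type co-repressor gene, had 0, 0.136 and 0.191 against 0.324, 0.448 and 0.258 at 211 nt from 75 skipping reads. Snph had 0.113, 0.165 and 0.0650 against 0.283, 0.245 and 0.233 at 201 nt, and Plekhg3 had 0.840, 0.903 and 0.876 against 1 in each library, from 7 skipping reads. The sets did not overlap in these introns. They overlapped in Maged2 (difference -0.121), Cdiptos (-0.121) and Ints6l (-0.225). Cdiptos lies antisense to Cdipt by name, but no annotated exon of another gene overlaps its called intron. Such an exon does overlap the called introns of Lrrc51 (Lamtor1, opposite strand) and Naa80 (Hyal1, same strand). Whether the read counting used strand is not given in the sources used here.

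In 2 genes more than 1 intron was called. The pair in Abcd4, an ABC transporter gene, used the same 5′ splice site and 3′ splice sites 5 nt apart on chromosome 12, and went in opposite directions. At the intron of 329 nt (84612451 to 84612779), an annotated splice, the levels were 0.222, 0.323 and 0.307 in the first set and 0.407, 0.458 and 0.508 in the second. At the intron of 334 nt (84612446 to 84612779), a splice to the second AG in no annotated transcript, they were 1, 0.967 and 0.905 against 0.871, 0.707 and 0.717. The differences in the authors' deposited table were -0.174 (FDR 0.00610) and 0.192 (FDR 0.00166). The inclusion reads of the pair were nearly the same, 480 and 494, so the contrast lay in the skipping reads. Those to the nearer AG were 49, 62 and 64 against 39, 22 and 28, and those to the further AG were 0, 1 and 3 against 4, 8 and 12. Neither kind of skipping read overlapped between the sets.

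The pair in Lrwd1, a gene of a protein bound to the replication origin recognition complex, shared a splice site and went the same way. The intron of 488 nt had 0.140, 0.119 and 0.120 against 0.253, 0.196 and 0.272, without overlap (difference -0.114, FDR 1.56e-04 in the authors' deposited table). The span of 1505 nt around it, with 4 whole annotated exons inside, had a difference of -0.229 in the authors' deposited table from 6 skipping reads, all in first set libraries 1 and 3.

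Some called introns contain an exon that is itself called as skipped or included. A skipped exon with at least 20 reads on average was tested by the authors inside 274 longer introns, and in 7 of these the exon met the same call rule. The intron was called in 4 of the 7, in each of the 4 in the direction of the exon, and in 11 of the 274. These exons and introns were chosen after their values were seen. In Mars, which encodes the methionyl-tRNA synthetase, the intron of 239 nt had levels of 0.294, 0.232 and 0.232 against 0.0822, 0.0830 and 0.126. An exon of 24 nt within it had a difference of 0.194, next to 0.156 for the intron, in the authors' deposited tables. In Idh3g, a subunit of mitochondrial isocitrate dehydrogenase, the intron of 571 nt had 0.243, 0.222 and 0.245 against 0.108, 0.135 and 0.0826, and an exon of 12 nt inside had a difference of 0.240, next to 0.128 for the intron. In Ist1, a gene of the ESCRT-III machinery, an exon of 160 nt had 0.151 next to 0.102, and in Ager an exon of 27 nt had 0.127 next to 0.339. Both values of each pair come from the authors' deposited tables, and they share reads, since reads on the inner exon count as inclusion reads of the intron. The part of the inner exon in the intron's difference was not tested. The other 3 introns, in Sh3glb2, Myl6 and Trnau1ap, had differences of 0.077, 0.012 and -0.028 in the authors' deposited table and were not called. The exons inside them had differences of 0.128, -0.191 and -0.302, so exon and intron went opposite ways in Myl6.

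By gene, 7 of the 38 genes with a called longer intron and a tested skipped exon (18.4%) had a called skipped exon, inside the intron or elsewhere. The share was 5.37% over the genes of all longer introns and 5.39% over all genes with a tested skipped exon. In the 4 genes above the exon lies inside the called intron and shares its reads, so part of the 18.4% is built in. The other genes were 9430015G10Rik, Abcd4 and Fahd2a. In 9430015G10Rik the exon ends at the base before the intron and went the other way. Its difference was -0.193 next to 0.123 for the intron in the authors' deposited tables. The difference between the shares was not tested.

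The calls differed in the number of skipping reads behind them. Fewer than 20 of them in all were behind 13 of the 47 calls (27.7%) and behind 16.8% of all longer introns. Of the 34 calls with at least 20, 30 did not overlap between the sets, which the call on the same reads partly builds in. When each library was left out in turn and the difference recomputed, 28 of the 47 stayed at 0.1 or above in size and 19 fell below it under at least 1 omission. The difference shrank by over 1.5 times in 9. Without second set library 3 it went from 0.135 to -0.00396 in Naa80, from 0.108 to 0.0478 in Pif1, from 0.107 to 0.0356 in Tmem198b, from 0.179 to 0.117 in Clasrp and from 0.158 to 0.0951 in Bsdc1. Without second set library 2 it went from 0.124 to 0 in Nme4, from 0.120 to 0.0693 in Mdm2 and from 0.210 to 0.136 in 1700029J07Rik, and without first set library 1 from -0.121 to -0.0530 in Cdiptos. All 7 skipping reads of Nme4 came from second set library 2. Leaving out a library also widened some differences by over 1.5 times. Without first set library 2 the difference was -0.344 in the Lrwd1 span of 1505 nt and -0.213 in Cdiptos. Without second set library 2 it was -0.361 in Ints6l, 0.230 in Naa80 and 0.271 in Clasrp, and without second set library 1 it was 0.187 in Nme4 and 0.173 in Tmem198b.

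**Figure D3:**
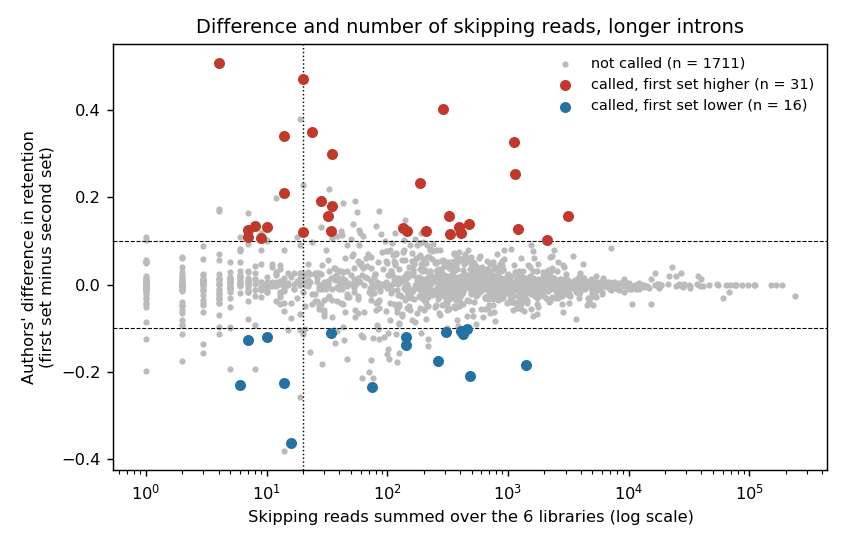
The authors' difference in retention, first set minus second set, against skipping reads summed over the 6 libraries (log scale) for the 1758 longer introns. Calls are red (31, first set higher) and blue (16, first set lower), dashed lines mark 0.1 in each direction and the dotted line marks 20 skipping reads, below which 13 calls lie.

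Pyrimidine motifs of the kind that PTB proteins bind were counted at the 3′ ends. TCTT was found on the sense strand in the last 100 nt of 22 of the 31 introns higher in the first set (71.0%) and 10 of the 16 lower (62.5%). It was in 60.6% of all longer introns and 57.0% of all rows of 100 nt or more. CTCTCT was found in 6 of the 31 (19.4%), 3 of the 16 (18.8%), 176 of the 1753 longer introns and 10.2% of all rows. The Abcd4 introns of 334 nt (higher) and 329 nt (lower) share the same CTCTCT stretch, so it counts in both called groups. Both motifs overlap in CTCTCTT, and a match is a description of the letters, not a binding site. On the other strand TCTT was in 38.7% and 18.8% of the called windows and 26.4% of the longer ones, and CTCTCT in 3.23%, 0% and 2.74%. In the 30 nt before the AG the median pyrimidine content was 73.3% and 68.3% in the called groups and 66.7% in the longer introns as a whole. Over the last 100 nt it was 56.0% and 54.5% in the called groups and 55.0% in the longer introns as a whole. The mean TCTT count in the last 100 nt was 0.839 in introns higher in the first set and 0.951 in all longer introns. In introns lower in the first set it was above 0.951. For CTCTCT these means were 0.226 (higher), 0.438 (lower) and 0.139 (all longer introns). No test was run on these shares, medians and means, and the called groups are small.

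**Figure D4:**
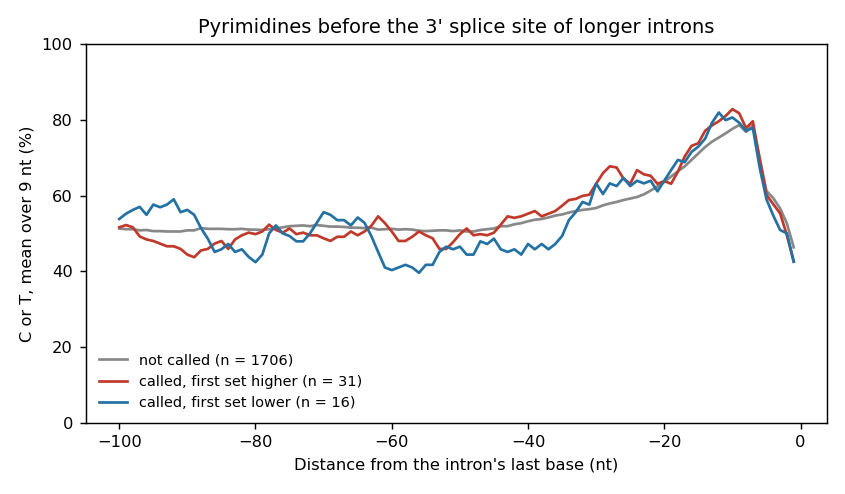
Share of C or T (%, mean over 9 nt) by distance from the last base of the intron for longer introns not called (grey, n = 1706), called with the first set higher (red, n = 31) and called with the first set lower (blue, n = 16). All 3 lines peak about 10 nt from the end, at 77.6%, 82.8% and 80.6% at that distance.

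Of the gene lists, the PTB family had a single longer intron, in Ptbp1 itself, of 247 nt (chromosome 10, 79858825 to 79859071, plus strand). Its span holds 3 whole annotated exons, which are overlapping alternative forms. The levels were 1 in each first set library and 0.961, 0.953 and 0.976 in the second, and the difference in the authors' deposited table, 0.037 with an FDR of 0.0185, was below the size limit. The reads differed far more than the level: 62, 144 and 105 inclusion reads in the first set and 795, 888 and 890 in the second, with 0 skipping reads against 12, 16 and 8. These counts are given as they stand, and no genotype was read from them.

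None of the longer introns in the SR protein, hnRNP and spliceosome lists was called, where 2.67% of all longer introns were, so lists of this size hold few calls at that share. SR proteins regulate splice site choice and CLK and SRPK kinases phosphorylate them. The list of these had 14 longer introns in 9 of its 24 genes, with a median level of 0.406 against 0.217 over all longer introns, and a median difference of -0.001 against 0. A whole exon lay inside 7 of the 14, against 19.7% of all longer introns, and the median level was 0.583 with such an exon and 0.322 without. The difference in level from other introns was not tested. Clk1, Clk2 and Clk3 carry retained introns in this list. The Clk1 span of 1349 nt had levels of 0.883, 0.857 and 0.853 against 0.796, 0.811 and 0.870, and the Srsf5 intron of 1229 nt had 0.547, 0.579 and 0.553 against 0.582, 0.566 and 0.539. These sets overlapped. In Clk3 a span of 2473 nt had a difference of 0.091 with an FDR of 0.0440 in the authors' deposited table, just under the size limit, and its sets overlapped. The Clk3 introns of 276 and 2100 nt lie inside this span and each share an end with it. They went the other way, with differences of -0.055 and -0.018 in the authors' deposited table, and were not called. Outside the lists, and chosen after values were seen, Clasrp, which encodes an SR-related protein, had a called intron. Its difference was 0.179 with an FDR of 0.0170 in the authors' deposited table. The sets overlapped there, at 0.935, 0.900 and 0.930 against 0.684, 0.926 and 0.618 from 35 skipping reads. Among the hnRNP genes, which encode abundant RNA-binding proteins of the nucleus, the longer introns of Hnrnph1, Hnrnpc and Hnrnpk had differences of 0.005, -0.009 and -0.007 in the authors' deposited table and were not called.

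The spliceosome list had 19 longer introns in 14 of 38 genes, with a median level of 0.640 and a median difference of 0.008. A whole exon lay inside 9 of the 19, with a median level of 0.640 in these and 0.744 in the 10 without one. This is the reverse of the order in the SR list. In 4 of them the sets did not overlap, all with the first set higher. The background for that direction is 5.82% over all introns and 7.22% over longer introns. One is in Sf3b1, which encodes a U2 snRNP protein at the branch point, with levels of 0.293, 0.284 and 0.270 against 0.253, 0.232 and 0.228 (difference 0.045, FDR 0.103 in the authors' deposited table). Another is in Tia1, which encodes an RNA-binding protein that aids U1 snRNP, with 0.616, 0.682 and 0.660 against 0.566, 0.565 and 0.477. Its difference of 0.117 came with an FDR of 0.0501 in the authors' deposited table, so it missed the FDR limit. The others are in Ddx5 (1265 nt) and Snrnp70, a U1 snRNP protein gene (2306 nt). Their differences were 0.041 and 0.020 in the authors' deposited table, with FDRs of 0.219 and 0.0348. The sets overlapped in the Ddx5 span of 1274 nt and the Snrnp70 intron of 1006 nt, which each share an end with these. Rbm25, with levels of 0.165, 0.213 and 0.243 against 0.146, 0.151 and 0.179, had a difference of 0.048 and an FDR of 0.0122 in the authors' deposited table, with sets that overlapped. Tial1, a paralogue of Tia1, went the other way at its intron of 334 nt, with 0.318, 0.359 and 0.285 against 0.415, 0.341 and 0.396. The difference was -0.063 with an FDR of 0.0440 in the authors' deposited table, and its sets overlapped too.

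Of the remaining lists, the p53 group had 3 longer introns and 1 call, in Mdm2, the ubiquitin ligase of p53. Its span of 1312 nt had levels of 0.874, 1 and 1 against 0.862, 0.736 and 0.916 from 20 skipping reads, and the sets overlapped. The intron of Trp53 had 0.0859, 0.0682 and 0.0986 against 0.0825, 0.108 and 0.104. The cell cycle list had 9 introns in 7 genes, the decay and export list 3 and the junction list 2, with 0 calls, and no gene of the crypt stem cell list had a longer intron in the table.

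The levels of the host genes were compared between genotypes by the authors' deposited gene values. Of the 45 genes with a called longer intron, 1 (2.22%) had a q-value below 0.05, where 0.537% of the 15460 tested genes did. A single gene does not set these shares apart. That gene was Ager, at 2.94 FPKM in WT and 1.19 FPKM in PTBP1_KO. Over the genes of all longer introns it was 5 of 1303 (0.384%): besides Ager, these were Ptbp1, Matk, the metallothionein gene Mt1 and Atxn7l2. The authors' p-value was below 0.05 for 4 of the 45 genes (8.89%). It was so for 2.30% of the genes of all longer introns and 4.35% of all tested genes. These shares were not compared by a test. Tead3 was listed at 20.7 and 35.0 FPKM (WT and PTBP1_KO) with a q-value of 0.0842 in the authors' deposited gene table, and the other genes of well-covered calls were close to level, with Hps1 at 4.57 and 4.69 FPKM and Celf1 at 45.2 and 52.7 FPKM.

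Epithelial markers were present in both genotypes, with 7 of 7 above 1 FPKM in WT and sums of 5647 FPKM in WT and 6134 FPKM in PTBP1_KO. The 4 crypt stem cell markers summed to 669 and 627 FPKM. The 4 Paneth cell markers differed more, at 5271 and 9124 FPKM, and the 4 tuft cell markers were all lower in PTBP1_KO, with sums of 55.8 and 38.4 FPKM. The 6 blood cell markers summed to 37.7 and 45.2 FPKM. Among them Cd3e was listed at 5.66 and 8.68 FPKM, Cd8a at 4.30 and 7.52 FPKM and Ptprc at 5.96 and 9.26 FPKM, while Hbb-bs was listed at 15.2 and 13.2 FPKM. No marker of these lists was at 0. The 6 stromal markers summed to 6.69 and 7.75 FPKM, and the 5 neural markers to 0.876 and 1.26 FPKM with Sox10 at 0 in both. The splicing sets carry no genotype, so the part of cell makeup in the retention differences was not tested, and in bulk samples fewer cells of a type and less RNA per cell cannot be told apart.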

How the data were processed

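Retained intron and skipped exon tables in the layout of rMATS, which count junction and exon body reads, were used as deposited. Inclusion and skipping read counts per library were made by the authors, as were the p-value, the FDR and the inclusion level difference, a score from -1 to 1, per the file headers. The gene table gives the authors' single FPKM per genotype, a log2 fold change and a p-value and q-value per gene. Per the submitters' processing notes, bcl2fastq 2.20, Trimmomatic 0.38, STAR 2.6.1d, Cufflinks and Cuffdiff were used, on mm10. RNA was polyadenylated and the kit was stranded, per the labels' protocols.

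Retention was recomputed from reads and form lengths, and its mean differences deviate by at most 0.00102 from the deposited ones. A call needs the authors' FDR below 0.05, an absolute difference of at least 0.1 and a mean of at least 20 reads. The authors' test of the first against the second set was used, and no further test was run on libraries whose genotype is unnamed. The 22 other columns of per-library values were not used. Library depth beyond these reads is not known from the tables. The functions were tested on simulated data.

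Members, lists and motifs were chosen with earlier results of these data known. Named introns are, 1 per gene, the 10 largest called differences of each sign, the 5 highest and 5 lowest levels among introns with at least 100 reads per library, the 3 longest, those at the length limit and list genes; others are named as examples chosen after values were seen. Annotation and sequences are from GENCODE M21 on mm10, 1-based. The software was Python 3.11.15 with pandas 2.3.3, numpy 2.4.6, matplotlib 3.10.9 and scipy 1.17.1. Alternatives varied the call limits, the read and length minimums, rows that share reads and single libraries. The result for 1 listed gene is not reported here.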

Additional observations from a re-analysis of the deposited data

How the results depend on the processing

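The number of called longer introns, 47, became 88 with a minimum difference of 0.05, 15 with 0.2, 141 with the FDR alone, 28 with an FDR below 0.01 and 25 with a minimum length of 500 nt. It was 34 to 45 with the other read and length minimums, without introns that overlap an exon of another gene and without those that hold a called skipped exon. The limits on skipping reads and on inner exons were added after the data were seen. The positive share, 66.0%, lay between 62.4% with the FDR alone and 76.0% with a minimum length of 500 nt over the alternatives run, of which the length, FDR and every-library settings were added for this share after the data were seen. The median retention of 0.217 became 0.597 as a plain share of reads with no correction for the length of the forms. It was 0.214 to 0.223 without single libraries. The count of called introns that did not overlap, 33, was 35 to 37 without single libraries, where fewer libraries overlap less often. No paired analysis was possible because the columns of the libraries carry neither a genotype nor a replicate number. Few skipping reads limit the precision of retention: fewer than 20 in all stood behind 10.6% of introns at levels of 0.5 to 0.8, 35.9% at 0.8 to 0.95 and 80.0% above that.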
